A study of Homo sapiens with 6 samples.

Results

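The 40 genes described here encode nucleolar proteins that transcribe ribosomal DNA and build ribosomal subunits. They were chosen by name, as a list of ribosome biogenesis factors and RNA polymerase I components, out of 33890 genes in the table, and all 40 had values. The cells were LN229, an established human glioblastoma line, in 2 groups: untreated control cells, and cells given 800 µM ursodeoxycholic acid (UDCA) for 48 h. UDCA is a bile acid and a medicine for bile duct disease. Each group had 3 libraries of polyadenylated RNA, so ribosomal RNA and its precursors were not measured. The labels do not say whether the 3 libraries came from separate cultures, so a p-value reflects only how far these libraries spread, which may be technical spread. By its title the study asks what UDCA can do against glioblastoma.

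Ribosome assembly starts in the nucleolus. RNA polymerase I copies the ribosomal DNA into a long precursor, small nucleolar ribonucleoproteins (snoRNPs) guide its chemical modification and some of its cuts, and a succession of assembly factors folds and trims it into the small and the large subunit. Growing and dividing cells spend much of their transcription on this pathway, the transcription factor MYC is known to drive many of its genes, and enlarged nucleoli are a classical sign of tumour cells.

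Values are FPKM, reads scaled to the exon length of the gene and to the library's total. Reads recovered from the table came to 15988951 to 17743022 per library. A gene was tested when it reached 1 FPKM in at least 3 of the 6 libraries, and "rose" or "fell" is used for an adjusted p under 0.05 in limma's trend test on log2(FPKM + 1), adjusted over 14380 genes. The treated libraries differed widely from control: 80.8% of tested genes passed, 35.7% lower and 45.1% higher, and their median log2 change was 0.10. MKI67, which encodes the Ki-67 antigen of dividing cells, fell from 56.1 ± 0.977 to 0.0362 ± 0.0129 FPKM (SD, n = 3), and MYC rose from 5.07 ± 0.474 to 33.3 ± 1.42 FPKM (n = 3). Mitochondrial genes took 3.13 to 3.16% of reads in control and 0.0263 to 0.0271% with UDCA. The 6 glioma and neural progenitor markers examined were all above 1 FPKM on average, with summed levels of 461 to 474 FPKM in control and 151 to 154 with UDCA. NES, VIM, SOX2 and CD44 fell, EGFR rose 1.36-fold and OLIG2 did not pass. Of 4 astrocyte markers only S100B was, so that their sum went from 276 to 295 down to 13.0 to 13.1 FPKM, while GFAP stood at 0.446 to 0.660 FPKM over all libraries and AQP4 at or near 0. Of 3 neuronal markers 2 were, with sums of 10.5 to 11.6 and 17.7 to 20.4 FPKM, and they went apart: SYT1 rose 2.96-fold and SNAP25 fell from 6.19 ± 0.441 to 4.28 ± 0.605 FPKM. No myeloid (0 of 3 with values) or endothelial (0 of 3) marker reached 1 FPKM. The part of these shifts in the changes of the nucleolar genes was not tested.

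The nucleolar genes split in direction and moved little in size. Of 39 tested members 9 fell, 21 rose and 9 did not pass, that is 23.1% lower and 53.8% higher, against 35.7% and 45.1% of all tested genes. The deepest falls were those of NOP56, NCL, FBL and UTP20, and the largest rises those of RRP12, PNO1, DDX21 and WDR43. RRP12 alone passed with a change of 2-fold or more on that log2 scale, 1 of 39 members (2.56%), where 24.3% of all tested genes did so. The median member changed by 0.15 on the log2 scale and the median size of change, sign set aside, was 0.37, against 0.53 for all tested genes. In bulk RNA, fewer cells of a type and less RNA per cell cannot be told apart.

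Summed over the 40 genes, the level was 1027, 1041 and 1031 FPKM in the control libraries and 1116, 1133 and 1134 FPKM with UDCA. The sum was thus 1.09-fold higher in the treated libraries, with no overlap between the groups. As a share of all reads the 40 genes took 0.444 to 0.448% in control and 0.461 to 0.469% with UDCA. The sum was not formed under other scalings, and the median log2 change of all tested genes was 0.10. NPM1 and NCL make up a large part of the level and moved in opposite directions. Mean NPM1 went from 236 to 282 FPKM and mean NCL from 112 to 66.5 FPKM. In 30 of the 39 tested members (76.9%) the groups did not overlap, against 82.8% of all tested genes. Exons of other genes cover at least 10% of the exon bases of 10 members (NHP2, POLR1C, NOP14, PNO1, TSR1, NOB1, NOP2, NOP16, RRS1 and NIP7), and 9 have pseudogenes named after them (NOP56, NHP2, RRN3, NCL, NPM1, LYAR, DDX10, PES1 and NIP7). Their levels are less certain, since reads may be shared. Among the 23 members with neither, 13 rose and 5 fell.

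**Figure D1:**
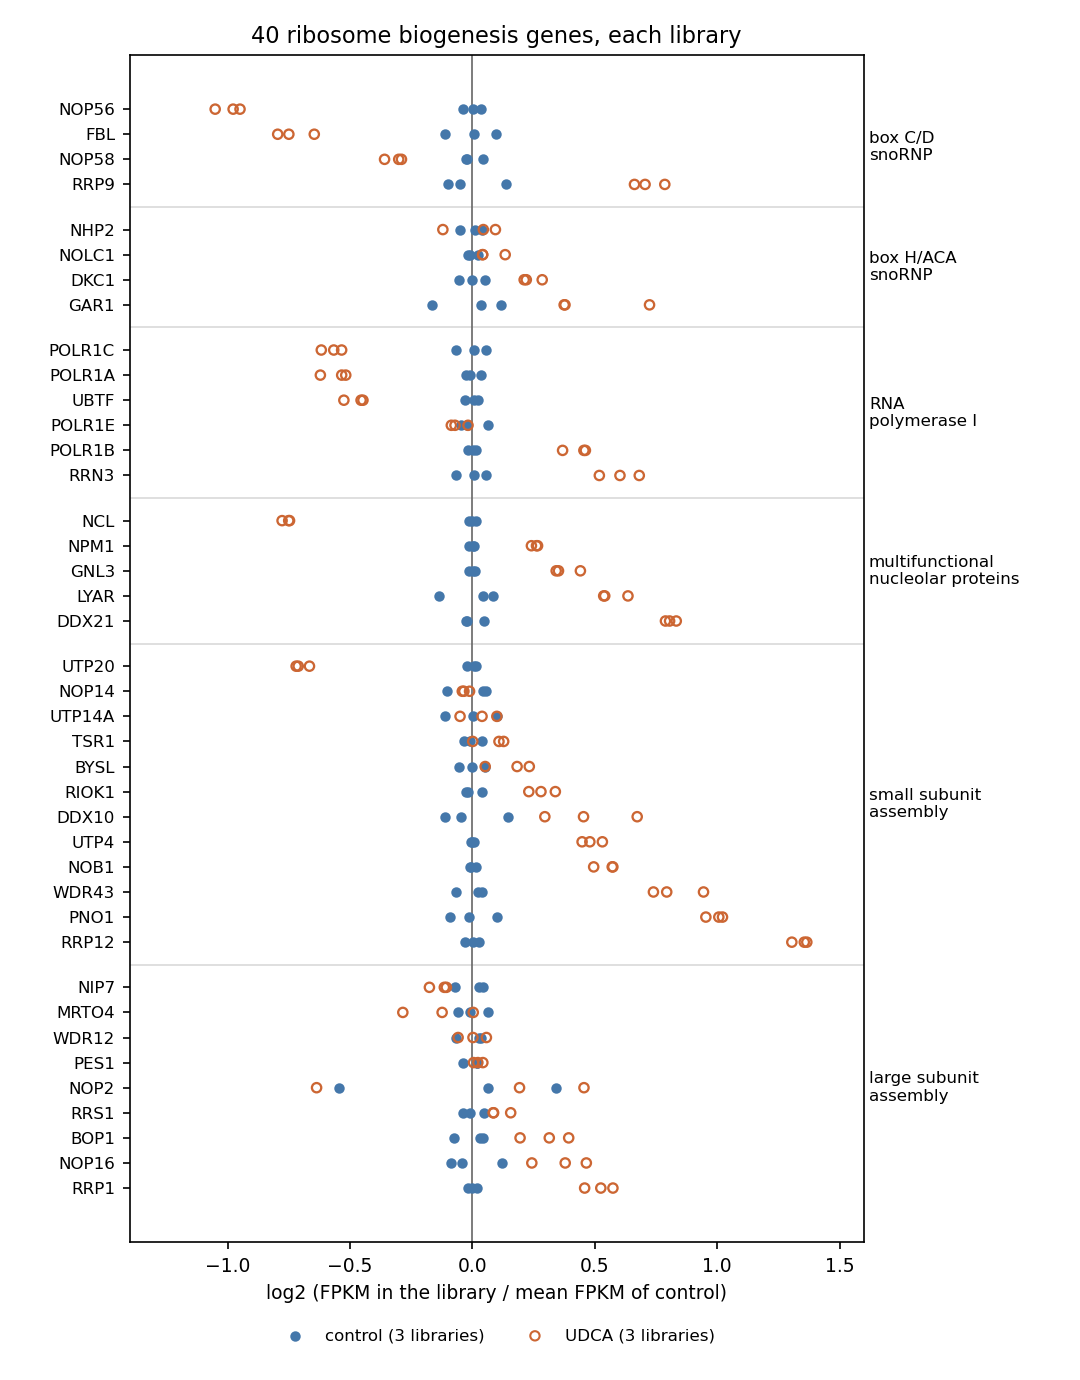
Each of the 40 genes in each library, as log2 of its FPKM over the mean FPKM of the control libraries (horizontal axis), grouped by role. Filled points are the 3 control and open points the 3 UDCA libraries; NOP56, FBL, NCL and UTP20 lie to the left of control, RRP12, PNO1, DDX21 and WDR43 to the right.

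**Figure D2:**
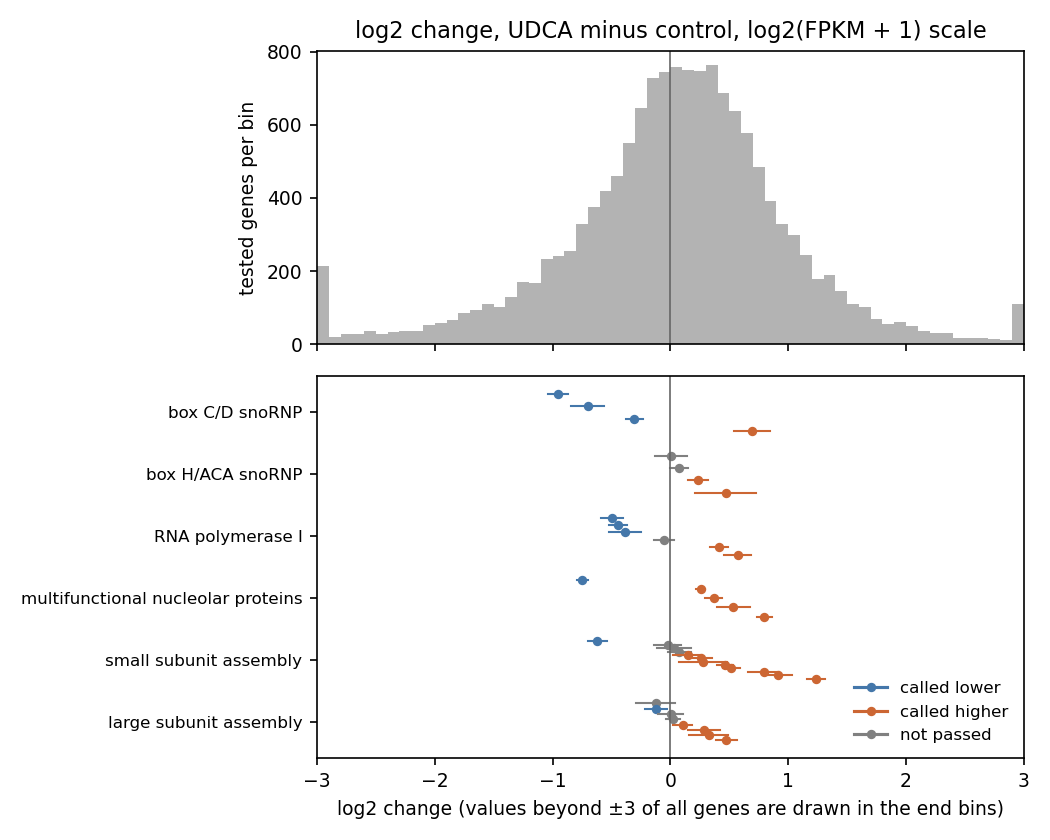
Top, the log2 changes (UDCA minus control) of all 14380 tested genes; bottom, the 39 tested members by role, with 95% confidence intervals, coloured by call. The members run from the fall of NOP56 (-0.95) to the rise of RRP12 (1.23).

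Promoter sequences are shown for members that fell (FBL, NCL, UTP20), members that rose (RRP9, DDX21, WDR43, NOB1) and UTP14A, which did not pass, so that the upstream DNA of genes moving in different directions can be set side by side. They come from RefSeq on GRCh38.p14. Each runs 5′ to 3′ on the gene's strand from 250 bases before the RefSeq transcription start to the first base of any annotated exon, so no exon is shown. Capitals mark, on either strand, the E-box CACGTG (the site of MYC and its relatives), the ETS core CCGGAAG, the CCAAT box CCAAT and the GC box GGGCGG; a match may share end bases with its neighbour.
FBL, chr19:39846415-39846629, strand minus: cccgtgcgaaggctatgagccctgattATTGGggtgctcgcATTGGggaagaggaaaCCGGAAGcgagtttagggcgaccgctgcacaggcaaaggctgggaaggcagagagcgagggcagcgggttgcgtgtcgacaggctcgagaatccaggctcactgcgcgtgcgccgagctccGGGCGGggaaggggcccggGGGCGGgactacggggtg
NCL, chr2:231464595-231464734, strand minus: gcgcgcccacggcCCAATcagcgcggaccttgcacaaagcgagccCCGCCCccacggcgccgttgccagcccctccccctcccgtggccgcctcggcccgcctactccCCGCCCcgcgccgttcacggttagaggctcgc
UTP20, chr12:101279855-101280104, strand plus: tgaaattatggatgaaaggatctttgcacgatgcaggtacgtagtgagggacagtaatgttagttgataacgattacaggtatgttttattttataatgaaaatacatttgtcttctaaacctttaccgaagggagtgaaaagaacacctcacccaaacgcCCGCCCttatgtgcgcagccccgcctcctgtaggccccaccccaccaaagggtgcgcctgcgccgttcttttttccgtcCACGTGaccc
RRP9, chr3:51941942-51942154, strand minus: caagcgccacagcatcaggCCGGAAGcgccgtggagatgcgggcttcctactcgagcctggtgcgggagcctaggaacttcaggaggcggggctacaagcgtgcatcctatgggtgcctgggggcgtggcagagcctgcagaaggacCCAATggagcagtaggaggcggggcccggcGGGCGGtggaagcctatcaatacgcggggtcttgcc
DDX21, chr10:68955920-68956127, strand plus: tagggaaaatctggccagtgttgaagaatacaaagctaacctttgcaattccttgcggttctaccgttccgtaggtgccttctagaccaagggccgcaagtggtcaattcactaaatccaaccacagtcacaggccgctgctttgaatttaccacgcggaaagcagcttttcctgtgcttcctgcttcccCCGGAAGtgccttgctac
WDR43, chr2:28894417-28894642, strand plus: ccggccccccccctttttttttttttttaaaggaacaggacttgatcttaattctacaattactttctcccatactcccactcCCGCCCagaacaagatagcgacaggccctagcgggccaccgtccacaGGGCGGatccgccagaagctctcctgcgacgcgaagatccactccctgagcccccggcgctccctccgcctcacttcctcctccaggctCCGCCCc
NOB1, chr16:69754941-69755176, strand minus: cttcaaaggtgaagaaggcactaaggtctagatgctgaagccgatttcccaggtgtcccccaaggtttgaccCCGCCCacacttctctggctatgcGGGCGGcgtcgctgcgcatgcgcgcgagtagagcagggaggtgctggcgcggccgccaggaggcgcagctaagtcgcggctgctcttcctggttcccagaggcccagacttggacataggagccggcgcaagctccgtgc
UTP14A, chrX:129905914-129906120, strand plus: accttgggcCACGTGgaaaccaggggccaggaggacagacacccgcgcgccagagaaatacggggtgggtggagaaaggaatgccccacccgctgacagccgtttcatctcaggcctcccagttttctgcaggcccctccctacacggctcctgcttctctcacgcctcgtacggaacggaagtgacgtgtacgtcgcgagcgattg

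UTP20 has an E-box that begins 10 bases before its start, and fell; UTP14A has one that begins 241 bases before, and did not pass. RefSeq starts were found for 34 of the 40 members. Counting 250 bases before any listed start, 5 of the 34 (14.7%) held the E-box: UTP20, which fell, UTP4, DDX21 and LYAR, which rose, and UTP14A. The E-box of DDX21 lies outside the stretch printed. Among 9462 tested genes with an entry the share with an E-box was 11.3%. The ETS core was in 12 of 34 members (35.3%, against 19.5% of those tested genes), 3 of which fell and 8 of which rose. The CCAAT box was in 38.2% of members and 42.0% of tested genes, and the GC box in 70.6% and 75.0%. These are matches of letters in a window and do not show binding.

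Of the 4 members of the box C/D snoRNP, the particle that adds methyl groups to ribosomal RNA, the 3 that belong to its core fell. Among all tested genes 35.7% fell and 45.1% rose. NOP56 (ENSG00000101361, GRCh38 chromosome 20, 2652145 to 2658393), a scaffold protein of the particle, measured 36.0, 35.0 and 36.8 FPKM in control and 17.3, 18.2 and 18.6 FPKM with UDCA. The treated libraries are all far below control. The log2 change was -0.95 ± 0.034 (SE, adjusted p = 3.22e-07), the deepest fall among the members. FBL (ENSG00000105202, chromosome 19, 39834458 to 39846414), which encodes fibrillarin, the methyltransferase itself, stood at 34.1, 39.4 and 37.0 FPKM in control and 21.2, 21.9 and 23.6 FPKM with UDCA. Control varied more here than for NOP56, yet the groups were well apart, and FBL fell by 0.70 on the log2 scale (SE 0.060, adjusted p = 2.94e-05). NOP58, the partner scaffold of NOP56, fell by 0.31 on the log2 scale, from 38.6 ± 1.07 to 31.0 ± 0.791 FPKM (n = 3). RRP9 went the other way. It encodes a protein specific to the U3 particle, which guides early cuts of the precursor rather than methylation, and stood at 18.4, 21.7 and 19.0 FPKM in control and 33.9, 32.1 and 31.1 FPKM with UDCA. That is a 1.65-fold rise (log2 change 0.69 ± 0.064, adjusted p = 4.44e-05). The 4 box C/D genes summed to 131 ± 2.92 FPKM in control and 104 ± 1.19 FPKM with UDCA (n = 3).

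Of the 4 members tied to the box H/ACA snoRNP, which converts uridines of ribosomal RNA to pseudouridine, 2 rose, none was called lower and 2 did not pass. Over all tested genes 45.1% rose and 35.7% fell. DKC1, the pseudouridine synthase dyskerin, stood at 24.7, 25.7 and 23.8 FPKM in control and 28.8, 30.1 and 28.6 FPKM with UDCA. It rose 1.18-fold (log2 change 0.23 ± 0.035, adjusted p = 0.000691). GAR1, a small core protein of the particle, measured 12.1, 14.7 and 13.9 FPKM in control and 17.6, 22.4 and 17.6 FPKM with UDCA. UDCA replicate 2 was the highest, the groups did not overlap, and GAR1 rose 1.42-fold (adjusted p = 0.00542). NHP2, another core protein, did not pass at 41.9 ± 1.27 and 42.2 ± 3.23 FPKM (n = 3), with a 95% interval of the log2 change of -0.13 to 0.14. NOLC1, a chaperone of both kinds of snoRNP, did not pass either, at 40.6 ± 0.588 and 42.7 ± 1.59 FPKM. NHP2 shares 27.4% of its exon bases with RMND5B, which makes its level less certain.

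Of the 6 RNA polymerase I members 3 fell, 2 rose and 1 did not pass, with the 2 largest subunits on opposite sides. Among all tested genes 35.7% fell and 45.1% rose. POLR1A (ENSG00000068654, chromosome 2, 86020216 to 86106155), the largest subunit, stood at 10.3, 9.95 and 9.85 FPKM in control and 6.52, 7.004 and 6.92 FPKM with UDCA. POLR1B (chromosome 2, 112541915 to 112577150), the second largest, with which it forms the active centre, stood at 17.8, 17.4 and 17.7 FPKM in control and 24.2, 22.8 and 24.3 FPKM with UDCA. So the treated libraries were all lower for one catalytic subunit and all higher for the other. The log2 changes were -0.50 ± 0.039 for POLR1A (adjusted p = 1.93e-05) and 0.41 ± 0.032 for POLR1B (adjusted p = 1.87e-05). POLR1C, a subunit shared with RNA polymerase III, fell from 2.56 ± 0.108 to 1.72 ± 0.0499 FPKM; other genes cover 18.2% of its exon bases. POLR1E, another subunit, did not pass at 18.5 ± 0.722 and 17.8 ± 0.445 FPKM, though it was called lower with median-ratio scaling (adjusted p = 0.00936), quantile normalization (0.0270) and totals without mitochondrial genes (0.0401), each of which gave 4 lower and 2 higher.

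The 2 factors that bring the polymerase to the ribosomal DNA also went apart. UBTF encodes UBF, which binds the ribosomal DNA and keeps it open; it stood at 18.1, 18.7 and 18.5 FPKM in control and 12.8, 13.5 and 13.5 FPKM with UDCA. RRN3 encodes TIF-IA, which links the polymerase to its promoter factors in response to growth signals; it stood at 15.1, 15.6 and 14.4 FPKM in control and 24.1, 22.8 and 21.5 FPKM with UDCA. In every control library the FPKM level of UBTF was above that of RRN3, and in every UDCA library it was below. UBTF fell by 0.45 on the log2 scale (SE 0.032, adjusted p = 1.1e-05) and RRN3 rose by 0.57 (SE 0.049, adjusted p = 2.98e-05). RRN3 has pseudogenes that can share its reads, 3 by name in the annotation.

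Of the 5 genes of multifunctional nucleolar proteins 4 rose, while NCL fell, against 45.1% higher and 35.7% lower of all tested genes. NCL (ENSG00000115053, chromosome 2, 231453531 to 231483641), which encodes nucleolin, an RNA-binding protein of the early precursor, stood at 111, 114 and 112 FPKM in control and 65.6, 66.9 and 67.0 FPKM with UDCA. NPM1 (ENSG00000181163, chromosome 5, 171387116 to 171411137), which encodes nucleophosmin, a chaperone of the outer nucleolus, had the highest level of all members, at 238, 237 and 234 FPKM in control and 279, 284 and 284 FPKM with UDCA. Replicates were tight for both genes, and the groups did not come near each other. The log2 change of NCL was -0.75 ± 0.019 (adjusted p = 6.44e-08) and that of NPM1 0.26 ± 0.017 (adjusted p = 7.7e-06). The annotation holds 45 pseudogenes named after NPM1, and their part in its value was not tested. DDX21, an RNA helicase that acts on the precursor and its transcription, also rose. Its level was 47.3, 47.2 and 49.6 FPKM in control and 84.0, 85.6 and 83.0 FPKM with UDCA, a 1.75-fold rise (log2 change 0.80 ± 0.027, adjusted p = 2.37e-07). GNL3, the GTPase nucleostemin, rose 1.301-fold to 37.1 ± 1.42 FPKM. LYAR, a nucleolar zinc finger protein, rose 1.49-fold to 15.8 ± 0.619 FPKM (n = 3).

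Ratios within a library do not depend on how libraries are scaled to each other, and 5 were formed after the members' values were known. POLR1B over POLR1A was 1.73, 1.75 and 1.80 in the control libraries and 3.71, 3.25 and 3.51 with UDCA. NPM1 over NCL was 2.14, 2.09 and 2.08 in control and 4.26, 4.25 and 4.23 with UDCA. Both ratios about doubled, by 1.98-fold and 2.02-fold, and so did RRN3 over UBTF (2.11-fold) and DKC1 over FBL (1.96-fold). RRP12 over UTP20 went from 0.715 ± 0.0234 to 2.94 ± 0.0799 (n = 3), 4.12-fold higher. In each of the 5 the groups did not overlap, which gives p = 0.10 in a 2-sided exact permutation test (adjusted p = 0.10), the smallest that 3 against 3 libraries allow. Since the pairs were picked for their opposite directions, this describes the size of the shift only.

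**Figure D3:**
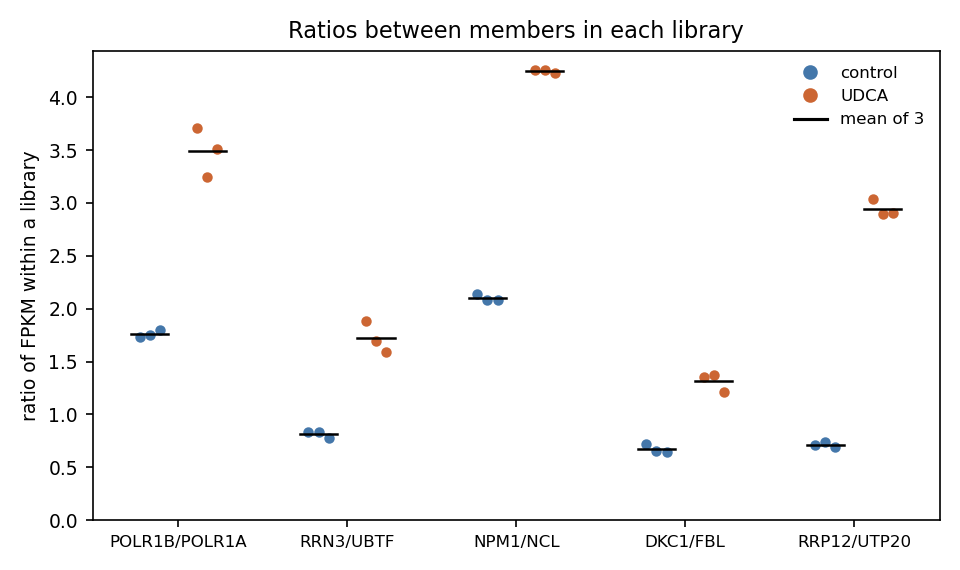
Ratio of the FPKM of 2 members within each library (vertical axis, from 0) for 5 pairs; points are libraries and black lines the mean of 3. Each UDCA group lies above its control group, from 2.08 to 2.14 up to 4.23 to 4.26 for NPM1 over NCL.

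Of 12 factors of small subunit assembly 8 rose, 1 fell and 3 failed the test, against 45.1% higher and 35.7% lower of all tested genes. Their median log2 change was 0.26. The number that rose was 6 with no filter on low values, without UDCA replicate 2 or without control replicate 1. RRP12 (ENSG00000052749, chromosome 10, 97356358 to 97426076), which helps export and mature the precursor of the small subunit, had the largest rise of the 40. Its level was 7.32, 7.45 and 7.15 FPKM in control and 18.8, 18.1 and 18.7 FPKM with UDCA. The treated libraries are 2.54-fold higher and closely alike (log2 change 1.23 ± 0.032, adjusted p = 6.74e-08). PNO1, an RNA-binding factor that works beside the nuclease that trims the end of small subunit RNA, stood at 8.56, 7.50 and 7.92 FPKM in control and 16.1, 15.5 and 16.2 FPKM with UDCA, a 1.99-fold rise (adjusted p = 2.48e-06). That nuclease is NOB1, and its gene rose 1.46-fold, from 13.7 ± 0.129 to 20.1 ± 0.613 FPKM. WDR43, of the complex that binds the precursor while it is made, stood at 17.2, 17.0 and 15.99 FPKM in control and 29.03, 32.2 and 28.0 FPKM with UDCA. It rose 1.78-fold (adjusted p = 1.11e-05), and UTP4, of the same complex, rose 1.40-fold to 22.2 ± 0.645 FPKM (n = 3). PNO1 and NOB1 share 10.4% and 20.2% of their exon bases with other genes.

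UTP20, a very large scaffold protein of the small subunit processome, was the member of this group that fell. Its level was 10.3, 10.1 and 10.3 FPKM in control and 6.21, 6.24 and 6.45 FPKM with UDCA (log2 change -0.62 ± 0.033, adjusted p = 2.39e-06). Smaller rises were those of RIOK1, a late-acting kinase (1.22-fold), DDX10, an RNA helicase near the lower limit of testing at 1.12 ± 0.105 and 1.56 ± 0.207 FPKM, and BYSL, the bystin gene (1.12-fold), whose groups overlapped. The call of DDX10 was lost without any one of control replicate 1, control replicate 3, UDCA replicate 2 or UDCA replicate 3 (adjusted p 0.0551 to 0.0797), and that of BYSL without any one of 4 libraries, control replicates 1 and 2 and UDCA replicates 1 and 2 (0.0719 to 0.0996). With no filter on low values the calls of DDX10 and BYSL were lost as well. DDX10 kept its call under 8 of 13 alternatives and BYSL under 4. The log2 change of BYSL, 0.15, became 0.06 with median-ratio scaling (adjusted p = 0.295) and with quantile normalization (0.319). UTP14A, which activates a helicase of the processome, NOP14, a processome scaffold, and TSR1, a GTPase-like late factor, did not pass. Their 95% intervals of the log2 change were -0.11 to 0.17, -0.14 to 0.09 and -0.02 to 0.17.

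Factors of large subunit assembly showed small changes in both directions. Of 8 tested, 4 rose, 1 fell and 3 failed the test, against 45.1% higher and 35.7% lower of all tested genes. The median log2 change of the 8 was 0.06. The split was 3 higher and 3 lower with median-ratio scaling, 4 and 2 with quantile normalization, and 3 and 0 without control replicate 1 or without control replicate 2. RRP1, a large subunit processing factor, stood at 8.89, 8.75 and 8.66 FPKM in control and 12.0, 12.6 and 13.1 FPKM with UDCA. It had the largest change here, 1.43-fold (log2 change 0.47 ± 0.037, adjusted p = 1.88e-05). NOP16 rose 1.29-fold to 9.73 ± 0.750 FPKM. PES1, BOP1 and WDR12 encode the 3 proteins of the PeBoW complex, needed to process large subunit RNA. BOP1 rose from 15.8 ± 0.706 to 19.5 ± 1.34 FPKM (1.23-fold, adjusted p = 0.00243), while PES1 stood at 36.8 ± 0.833 and 37.4 ± 0.495 FPKM and WDR12 at 6.90 ± 0.264 and 6.91 ± 0.277 FPKM. The intervals of their log2 changes were -0.04 to 0.08 for PES1 and -0.11 to 0.11 for WDR12.

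RRS1, which helps bring the 5S ribosomal RNA particle in, rose 1.08-fold, and NIP7, a precursor processing factor, fell from 12.8 ± 0.549 to 11.7 ± 0.305 FPKM. Neither call was stable: each was lost without control replicate 1, without control replicate 2 or without UDCA replicate 3, over adjusted p values of 0.0596 to 0.0746 for RRS1 and 0.0721 to 0.0848 for NIP7. RRS1 kept its call under 7 of 13 alternatives, and with median-ratio scaling its log2 change was 0.02 (adjusted p = 0.658) in place of 0.11. MRTO4, a factor that holds the place of the ribosomal stalk, did not pass at 16.2 ± 0.688 and 14.8 ± 1.47 FPKM; it was called lower without UDCA replicate 3 (adjusted p = 0.0240), with median-ratio scaling (0.0289) and with quantile normalization (0.0308). NOP2, a methyltransferase of large subunit RNA, was the member not tested. It stood at 0.321, 0.174 and 0.265 FPKM in control and 0.347, 0.163 and 0.289 FPKM with UDCA, on 62 reads over the treated libraries. The groups overlap, and exons of AC006064.6 cover 54.4% of its exon bases, so its level cannot be taken at face value.

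Some members also contain genes of small RNAs that guide the snoRNPs. Of the 40 genes, 8 hold small nucleolar or Cajal body RNA genes within their bounds on the same strand, 26 in all. NOP56, with SNORD57 and SNORD86 among its 5, NOP58, NCL and POLR1C fell; DKC1, GNL3 and WDR43 rose, and TSR1 did not pass. Hosts were thus found in both directions, as were all tested genes, of which 35.7% were lower and 45.1% higher.

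Genes of the same pathway outside the 40 were taken from 5 lists by role. Of their 135 tested genes 72 rose, 32 fell and 31 failed the test, and the median log2 change was 0.19, against 45.1% higher, 35.7% lower and a median of 0.10 over all tested genes. The median of the 5 lists was 0.10 with median-ratio scaling (65 higher and 42 lower) and 0.09 with quantile normalization (68 and 41). Under these 2 settings the median of all tested genes moved as well, to 0.0153 and 0.0589. Of 41 other small subunit factors 24 rose and 9 fell (median 0.27), and of 52 other large subunit factors 31 rose and 7 fell (median 0.24). Among the former, the helicase gene DDX49 rose from 15.2 ± 0.624 to 31.3 ± 1.06 FPKM, the methyltransferase gene EMG1 2.02-fold and WDR36 2.04-fold. IMP3, a U3 particle protein, fell from 3.69 ± 0.233 to 1.63 ± 0.279 FPKM, and KRR1 and the acetyltransferase gene NAT10 fell as well (to 2.76 ± 0.0184 and 11.3 ± 0.396 FPKM). Among large subunit factors EFL1, a GTPase that helps remove the factor keeping new large subunits from joining small ones, rose 3.70-fold from 4.43 ± 0.396 to 16.4 ± 0.503 FPKM. ZNF622 rose 2.57-fold and RPF1 2.02-fold, while DDX56 fell from 30.8 ± 0.956 to 23.7 ± 0.311 FPKM.

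Other components of the RNA polymerase I system also went both ways. Of 13 tested, 7 rose and 4 fell, where 45.1% of all tested genes were higher and 35.7% lower. With scaling by the median ratio of genes, or with quantile normalization, 6 rose and 6 fell. TAF1A, a subunit of the promoter factor SL1, rose 2.41-fold from 3.68 ± 0.359 to 8.88 ± 0.164 FPKM, and POLR1D, a subunit shared with RNA polymerase III, and TAF1D, of SL1, rose 1.603-fold and 1.59-fold. The deepest falls were in small subunits that the 3 nuclear polymerases share. POLR2L went from 76.5, 71.6 and 68.4 FPKM to 18.7, 19.9 and 20.3 FPKM (adjusted p = 8.19e-08), POLR2F from 16.7 ± 0.985 to 7.36 ± 0.122 FPKM and POLR2E from 28.97 ± 0.348 to 15.5 ± 0.974 FPKM. These 3 were lower in every treated library than in any control library. Of the remaining shared subunits, named after their values were seen, POLR2K fell from 44.4 ± 2.26 to 38.7 ± 2.19 FPKM and POLR2H rose from 23.6 ± 1.09 to 28.3 ± 1.78 FPKM.

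Of 13 other snoRNP proteins and assembly factors 5 were higher and 4 lower, against 45.1% and 35.7% of all tested genes. With scaling by the median ratio of genes 4 were higher and 5 lower. NAF1, an assembly factor of H/ACA particles, rose 1.78-fold to 7.84 ± 0.232 FPKM, and NOP10, the remaining H/ACA core protein, rose 1.28-fold to 104 ± 1.33 FPKM. Other genes of this list went both ways. PIH1D1 fell from 21.2 ± 0.682 to 11.2 ± 0.759 FPKM. The ATPase gene RUVBL2 fell from 37.3 ± 1.92 to 25.0 ± 0.460 FPKM, and RUVBL1 and TCOF1 fell as well. TGS1 rose from 14.7 ± 0.348 to 23.5 ± 0.553 FPKM and ZNHIT6 from 5.19 ± 0.365 to 6.89 ± 0.383 FPKM. ZNHIT6 and TCOF1 were named after their values were seen. SHQ1, ZNHIT3, NUFIP1 and RPAP3 did not pass. Of the 4 core proteins of the methylating particle FBL, NOP56 and NOP58 fell, while SNU13, named after its values were seen, rose 1.14-fold from 34.9 ± 1.92 to 39.98 ± 2.71 FPKM (adjusted p = 0.0194); that call held under 9 of 13 alternatives, with adjusted p up to 0.152. Of the 4 of the pseudouridylating particle DKC1, GAR1 and NOP10 rose and NHP2 did not pass. In the RNA exosome, which trims precursor ends, 8 of 16 genes fell and 5 rose (5 and 5 without control replicate 1). Over all tested genes 35.7% were lower and 45.1% higher. EXOSC9 and EXOSC10, the latter a catalytic subunit, fell to 4.77 ± 0.0446 and 6.08 ± 0.320 FPKM from 11.2 ± 0.822 and 12.1 ± 0.464 FPKM. EXOSC7, EXOSC1 and EXOSC5 rose 1.83-fold, 1.68-fold and 1.604-fold.

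**Figure D4:**
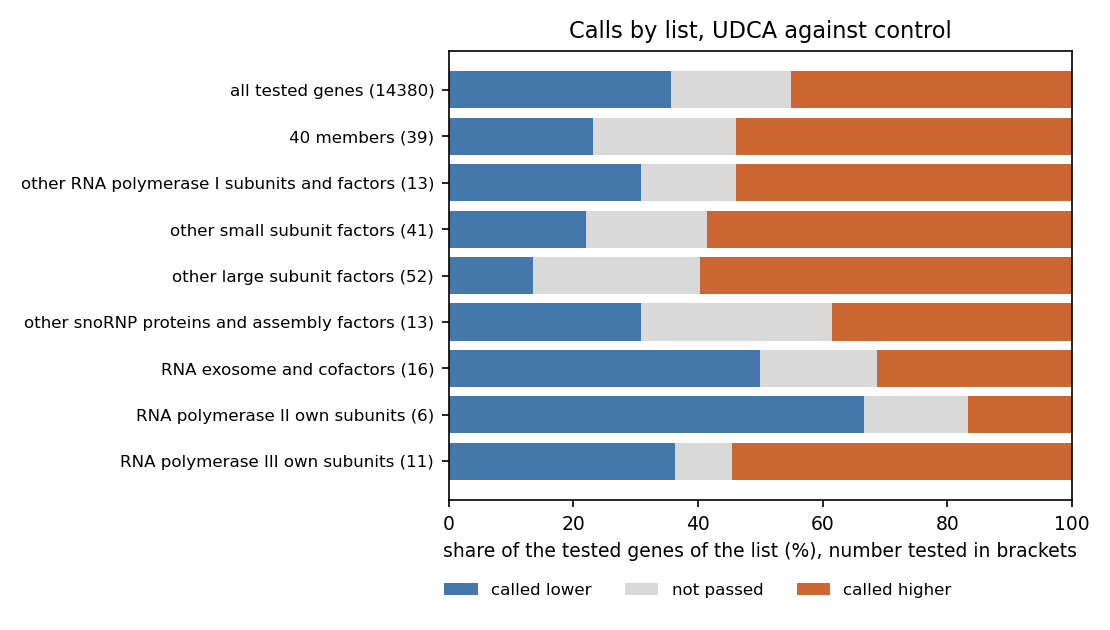
Share of the tested genes of each list that were called lower, did not pass or were called higher (horizontal axis, percent; number tested in brackets), with all tested genes on top. The large subunit factors had 7 of 52 lower and 31 higher, and the RNA exosome 8 of 16 lower.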

How the data were processed

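Polyadenylated RNA was sequenced from 3 control and 3 UDCA libraries with Illumina TruSeq kits, per the labels' protocols. HISAT2, Bowtie2 2.0.6 and GRCh38 are named in the submitters' processing notes without their roles. How reads were counted, by strand and where genes share them, is not given in the sources used here. What the authors deposited are FPKM values, a unit inferred from the values: multiplied by the gene's exon length (GENCODE 29, exons merged) and the library's total, each gives a whole number of reads within a tolerance of 0.01 for 100% of values. Libraries are thus scaled by total only, and abundant genes that move shift all others.

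Symbols and coordinates came from GENCODE 29, whose coordinates matched for all 33890 genes; DIEXF was matched as UTP25 through RefSeq synonyms. Genes reaching 1 FPKM in 3 or more of the 6 libraries were tested with limma 3.58.1 (R 4.3.3), trend fit on log2(FPKM + 1), group as the only term, 2-sided, Benjamini-Hochberg over all tested genes at 0.05. The added 1 makes changes of low genes look smaller. Folds are ratios of mean FPKM. Plots used Python 3.11.15, pandas 2.3.3 and matplotlib 3.10.9.

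The members and lists were chosen with earlier results of these data known. All members could be named; of each other list, the 3 called genes with the largest change in each direction and at least 2 FPKM, and genes that did not pass where a list had at most 5 of them; not all are described. Libraries of a group differed by more than sampling noise (chi-square over its degrees of freedom 1.69 to 2.87), and each counted as 1 sample. Alternatives were other scalings, pseudocount and filter, voom on recovered reads, a replicate block, leaving out each library, and, added after seeing the data, only members with under 10% exon overlap and no named pseudogene.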

Additional observations from a re-analysis of the deposited data

How the results depend on the processing

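Of the 30 calls among members, 26 (8 lower and 18 higher) held under all 13 alternatives, listed in the processing section; BYSL, DDX10, RRS1 and NIP7 did not. Members called lower numbered 8 to 12 and called higher 18 to 21 over those alternatives. Counting only the 23 members with under 10% exon overlap and no named pseudogene, chosen after seeing the data, 5 were lower and 13 higher; the smaller counts follow from fewer members. The median log2 change of the members, 0.147 as reported, was 0.0613 with median-ratio scaling, 0.0831 with quantile normalization, 0.117 to 0.196 with 1 library left out, and 0.231 over those 23 members. The median of all tested genes was 0.0153 with median-ratio scaling and 0.0589 with quantile normalization. Same-numbered libraries did not deviate together (correlations of -0.0012 to 0.014, against -0.0502 to 0.0416 for the other pairs). Pairing by number was thus not seen, though 3 libraries per group cannot exclude a small shared effect. With the replicate block, 9 members were lower and 21 higher and 11503 genes were called in all. BYSL was lost there (adjusted p = 0.0724) and NOLC1 gained (0.0494).

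Of 507 member values, 455 kept direction and side of the threshold, 23 lost the call, 9 gained one and 20 changed sign. All 20 were members that had not passed; the cause was not tested. With median-ratio scaling NHP2 was at -0.0826, NOLC1 at -0.0179, UTP14A at -0.0546, TSR1 at -0.0109, WDR12 at -0.0786 and PES1 at -0.0658 (adjusted p = 0.04998). With totals without mitochondrial genes NHP2 was at -0.0381, UTP14A at -0.0123, WDR12 at -0.0388 and PES1 at -0.0214, and with quantile normalization UTP14A at -0.0725 and WDR12 at -0.0659. Over the fits with 1 library left out the log2 change ran from -0.0363 to 0.0685 for NHP2, from -0.0211 to 0.0790 for UTP14A, from -0.0268 to 0.0269 for WDR12 and from -0.0707 to 0.000745 for NOP14. At the depth of these libraries, 3 reads on 1 kb of exon are worth 0.169 to 0.188 FPKM.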

Other observations

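Subunits of the other nuclear RNA polymerases are given here beside those of RNA polymerase I. Among 11 subunits listed for RNA polymerase III, which makes 5S ribosomal RNA and transfer RNA, 6 rose and 4 fell. Of all tested genes 45.1% were higher and 35.7% lower. With median-ratio scaling or quantile normalization 4 of the 11 rose and 5 fell. POLR3C rose 3.25-fold from 12.7 ± 0.320 to 41.2 ± 1.33 FPKM, POLR3E 3.12-fold from 5.11 ± 0.103 to 15.95 ± 0.255 FPKM and POLR3D 2.91-fold from 9.88 ± 0.0516 to 28.8 ± 0.537 FPKM (n = 3 in each group). Of 6 tested subunits of RNA polymerase II that it shares with neither, 4 fell and 1 rose, against the same shares of all tested genes. POLR2A, its largest subunit, fell from 44.7 ± 1.03 to 25.3 ± 1.13 FPKM, while POLR2C rose from 18.2 ± 0.119 to 23.0 ± 1.02 FPKM. Differences between the 3 enzymes were not tested.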
